A study of Mus musculus with 8 samples.

Results

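The 9 genes described here encode C-type lectin receptors of myeloid cells: Clec4e, Clec4d, Clec4n, Clec7a, Clec5a, Clec12a, Clec4a1, Clec4a2 and Clec4a3. They were chosen by symbol, matched to the Ensembl identifiers of the count tables, and make up 9 of 54532 genes. All 9 had enough counts to be tested. RNA-Seq of polyadenylated RNA was performed on bone marrow-derived macrophages (BMDMs), cells grown out of mouse marrow for 7 days in L929-conditioned medium, from mice aged 6 to 8 weeks. Sequencing covered 4 groups of 2 libraries: wild-type cells (WT), Trex1-/- cells (Trex1-KO), and Trex1-/- cells given the STING antagonist H151 (Trex1-KO+H151) or SN-011 (Trex1-KO+SN-011). TREX1 is the exonuclease that clears DNA from the cytosol, and without it cGAS and STING are switched on by the cell's own DNA. WT and Trex1-KO cells received the DMSO vehicle, and all cells were harvested after 12 h. H151 was used at 500 nM per the labels. For SN-011 a dose is missing from the labels, and the methods of the study give the same concentration as for H151. No untreated cells and no WT cells with an antagonist were analysed here. The deletion was carried by the whole animal and not made in culture. Per the study's methods, WT mice were purchased and Trex1-/- mice were bred from heterozygous parents. In every comparison with WT, the source of the animals and the genotype therefore cannot be told apart.

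C-type lectin receptors are surface proteins with which macrophages, monocytes, neutrophils and dendritic cells sense sugars and lipids of microbes and molecules of damaged cells. Activating members signal through an immunoreceptor tyrosine-based activation motif, either in their own tail (Clec7a) or in a partner, FcRgamma (Fcer1g) or DAP12 (Tyrobp). SRC-family kinases and SYK then engage PLCgamma2, PKCdelta and the CARD9-BCL10-MALT1 complex, which turns on NF-kappaB. Inhibitory members carry an inhibitory motif that recruits phosphatases such as SHP-1 (Ptpn6).

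Loss of Trex1 was accompanied by higher transcript levels of 6 of the 9 receptors and a lower level of 1. Clec4e and Clec5a, both activating, rose 2.31-fold and 1.99-fold, the largest rises in the fit on all libraries. Without WT replicate 2 their log2 fold changes were 0.60 and 0.65, compared with 0.68 for Clec12a, and with DESeq2 the rise of Clec4e was not called. Clec12a, Clec7a, Clec4a3 and Clec4a1 rose between 1.22-fold and 1.65-fold, and Clec4n fell to 0.619 of its WT level. Clec4e and Clec5a fell again with either STING antagonist, whereas the fitted level of Clec7a was 1.01 and 1.04 times that of Trex1-KO with H151 and SN-011. The fall of Clec5a with SN-011 was not called with total-count scaling, and that of Clec4e with H151 was not called by DESeq2.

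A gene was called when its Benjamini-Hochberg adjusted p in the edgeR quasi-likelihood test, taken over all 14591 tested genes, was under 0.05. In Trex1-KO against WT, 16.4% of all tested genes were called (9.27% higher and 7.11% lower), against 7 of the 9 receptors. At an unadjusted p under 0.05 there were also 7. The share of all genes at this unadjusted cutoff was not counted, here or below. The median log2 fold change of the receptors was 0.33 and that of all tested genes -0.00. In Trex1-KO+H151 against Trex1-KO, 2.23% of all genes were called (0.384% higher and 1.84% lower), and 3 receptors were lower and 0 higher, with 6 at an unadjusted p under 0.05. The receptors' median log2 fold change was -0.13 and that of all genes 0.00. In Trex1-KO+SN-011 against Trex1-KO, 2.33% of all genes were called (0.11% higher and 2.22% lower), and again 3 receptors were lower and 0 higher, with a median of -0.19 against 0.01 for all genes and 6 at an unadjusted p under 0.05. Leaving out any 1 of these 4 libraries cut the 3 lower calls with SN-011 to 1. The comparisons with an antagonist share the Trex1-KO libraries with the comparison of genotypes, and are not independent of it. The treatment text of the SN-011 libraries differs from that of the other 6 and their records are later, so in every comparison of SN-011 with another group a batch effect and the antagonist cannot be told apart.

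Read without a model, the Trex1-KO and WT libraries did not overlap for 8 receptors, 6 higher (28.6% of all tested genes did so) and 2 lower (27.5%). Against Trex1-KO, both H151 libraries were higher for 2 receptors (17.5% of all genes) and lower for 6 (17.9%), and both SN-011 libraries were higher for 0 (21.8%) and lower for 8 (21.6%). SN-011 lay above H151 for 2 receptors (19.7%) and below for 5 (20.0%). Against WT, H151 was higher for 5 (26.7%) and lower for 2 (25.4%), and SN-011 higher for 3 (28.8%) and lower for 4 (25.5%).

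**Figure D1:**
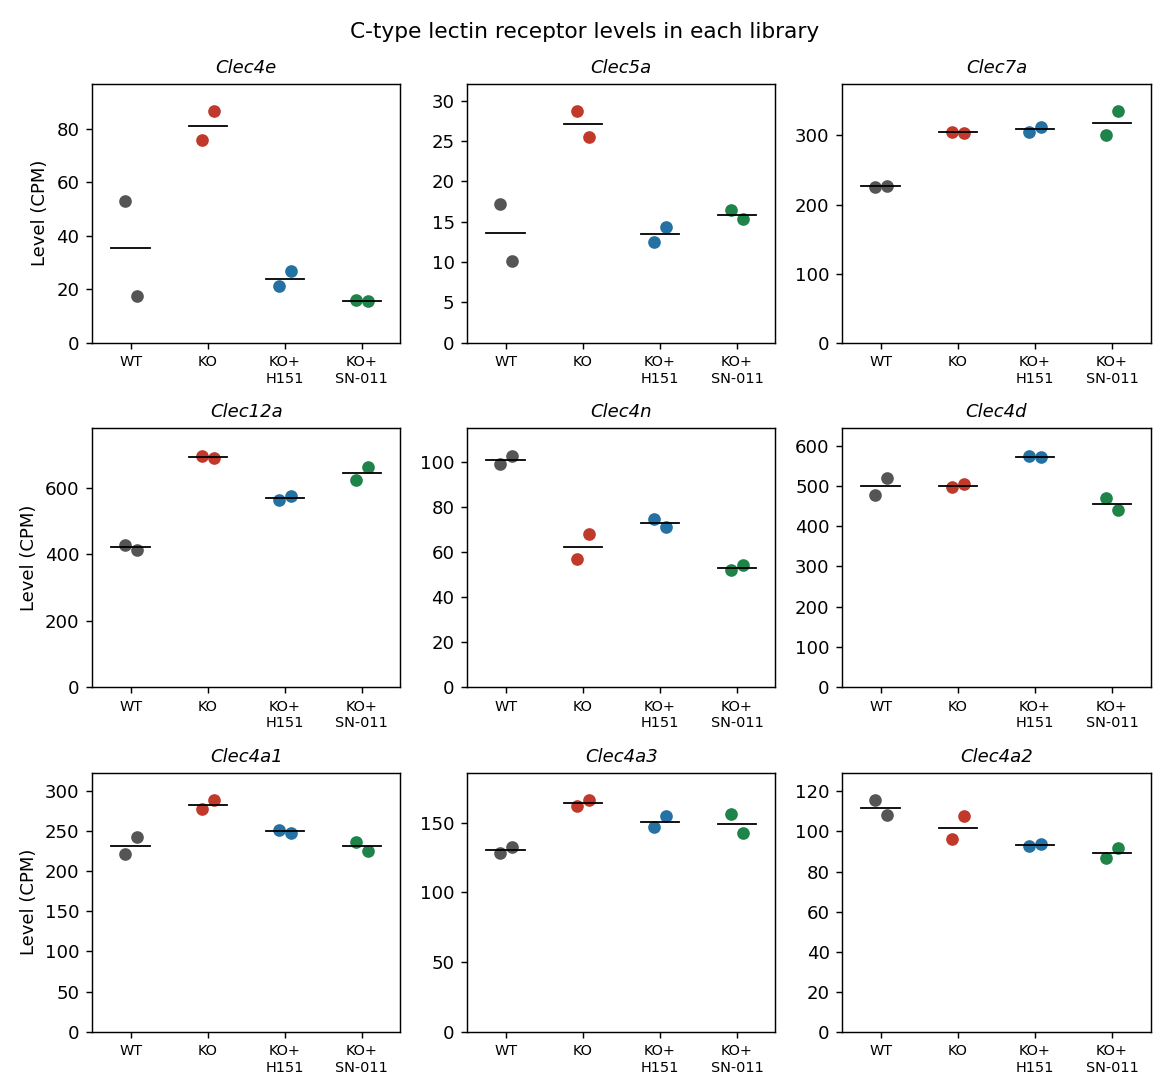
Level of each receptor in every library, in TMM-normalized CPM (counts scaled to a common library size), with 1 dot per library, 2 per group, and a line at the group mean; each axis starts at 0. In the panel of Clec4e, the Trex1-KO libraries at 75.8 and 86.6 CPM lie above all others, and the WT libraries lie apart at 53.1 and 17.6 CPM.

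Levels can be compared between genes only per length, so the TMM-normalized CPM were also divided by exonic length (FPKM). This length joins the exons of all listed transcripts of a gene. For Clec12a it was 5528 bases, whereas its longest transcript has 3233 bases. On that shorter length its FPKM would be higher, so its place in the orders below depends on the length chosen. In WT cells Clec4d was highest, with 312 ± 19 FPKM (SD, n = 2), followed by Clec4a1 (149 FPKM), Clec4a3 (98.1 FPKM), Clec7a (85.9 FPKM), Clec12a (76.0 FPKM), Clec4n (71.2 FPKM) and Clec4a2 (38.3 FPKM). Clec4e and Clec5a stood at the bottom, at 7.12 ± 5.1 and 3.56 ± 1.3 FPKM (SD, n = 2). These last neighbours overlapped between libraries, and no other neighbours in the WT order did. In Trex1-KO cells the order began with Clec4d (313 FPKM) and Clec4a1 (181 FPKM), and Clec12a (125 FPKM) moved up beside Clec4a3 (123 FPKM), with which it overlapped. Clec4e and Clec5a remained the lowest in Trex1-KO, at 16.4 and 7.06 FPKM. With H151, Clec7a and Clec4a3 overlapped, and with SN-011 Clec7a overlapped with Clec12a and Clec12a with Clec4a3. SN-011 was also the only group in which Clec5a (4.13 FPKM) lay above Clec4e (3.18 FPKM). The counts of these 2 receptors ran from 150 to 1313 per library.

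Clec4e encodes Mincle, a sensor of mycobacterial cord factor and of the nuclear protein SAP130 released by dying cells, and signals through FcRgamma. Clec4e (ENSMUSG00000030142; GRCm38, chromosome 6, 123281789 to 123289870, minus strand) was measured at 53.1 and 17.6 CPM in the WT libraries, 75.8 and 86.6 in Trex1-KO, 21.3 and 26.7 with H151, and 15.9 and 15.6 with SN-011. Both Trex1-KO libraries were above all other libraries, while the WT libraries lay far apart and enclosed both H151 libraries. The rise in Trex1-KO was 1.21 ± 0.30 (log2 fold change ± SE, edgeR adjusted p = 0.0134). It was 2.2 without WT replicate 1 and 0.60 without WT replicate 2, so its size depended on which WT library was used. With DESeq2 the rise was not called (adjusted p = 0.171). H151 lowered Clec4e to 0.297 of the Trex1-KO level (log2 fold change -1.75 ± 0.32, SE, edgeR adjusted p = 0.00731), and with SN-011 it was at 0.194 (-2.36 ± 0.33, edgeR adjusted p = 0.000971). DESeq2 called the fall with SN-011 and not that with H151 (adjusted p = 0.0514). Against WT, the level with H151 was not called different (log2 fold change -0.54, 95% interval -1.25 to 0.17). It was called lower without WT replicate 2 (-1.15, edgeR adjusted p = 0.000254) and when every gene with at least 1 count was kept (-0.56, edgeR adjusted p = 1.25e-05), and without WT replicate 1 the difference was 0.45 and not called. With SN-011 it was lower than WT by edgeR (-1.15 ± 0.35, SE, adjusted p = 0.0467), a call that was lost when WT replicate 1 was left out (-0.16, adjusted p = 0.717) or either SN-011 library was (adjusted p = 0.223 and 0.197), and with DESeq2 (0.244).

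Clec5a encodes MDL-1, an activating receptor that pairs with DAP12 and DAP10 and is known as a receptor for dengue virus. Clec5a (ENSMUSG00000029915; GRCm38, chromosome 6, 40574894 to 40585821, minus strand) was measured at 17.2 and 10.2 CPM in WT, 28.7 and 25.5 in Trex1-KO, 12.5 and 14.4 with H151, and 16.5 and 15.3 with SN-011. The Trex1-KO libraries again lay above all 6 others, among which the antagonist libraries fell inside the range of the WT libraries. Its level rose 1.99-fold in Trex1-KO (log2 fold change 0.99 ± 0.18, SE, edgeR adjusted p = 0.00166). Without WT replicate 2 the rise was 0.65, still called. H151 brought it down to 0.499 of the Trex1-KO level (-1.0 ± 0.18, edgeR adjusted p = 0.00783), and this call held with each of the 4 libraries left out. With SN-011 it was at 0.588 (-0.77 ± 0.18, edgeR adjusted p = 0.0398). That call was lost with any of the 4 libraries left out: the adjusted p was 0.203 and 0.0536 without Trex1-KO replicates 1 and 2, and 0.272 and 0.287 without SN-011 replicates 1 and 2. It was also lost with total-count scaling (0.0505). Against WT the difference was -0.01 (95% interval -0.43 to 0.41) with H151 and 0.23 (-0.18 to 0.64) with SN-011. Without WT replicate 1, the SN-011 level was called higher than WT (0.63, edgeR adjusted p = 0.0449).

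The stretches in front of these 2 genes are shown because they were the receptors that rose with loss of Trex1 and fell with both antagonists. They are the 250 bases before the first listed RefSeq transcription start (build GRCm38.p6), written on the strand of the gene, 5′ to 3′. Capitals mark matches to 1 of 6 motifs, searched on both strands: the interferon-stimulated response element (GAAA, any 2 bases, GAAA), the gamma-activated site (TTCNNNGAA), NF-kappaB (GGGA, any base, TTTCC), C/EBP (TTGCNNAA), AP-1 (TGANTCA) and PU.1 (GAGGAAG). The 2 windows are chr6:123289872-123290121 for Clec4e and chr6:40585806-40586055 for Clec5a, both read on the minus strand.
Clec4e: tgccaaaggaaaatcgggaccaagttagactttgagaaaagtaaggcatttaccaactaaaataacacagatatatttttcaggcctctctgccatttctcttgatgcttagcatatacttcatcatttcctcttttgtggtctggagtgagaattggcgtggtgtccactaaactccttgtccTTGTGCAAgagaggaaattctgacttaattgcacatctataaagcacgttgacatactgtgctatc
Clec5a: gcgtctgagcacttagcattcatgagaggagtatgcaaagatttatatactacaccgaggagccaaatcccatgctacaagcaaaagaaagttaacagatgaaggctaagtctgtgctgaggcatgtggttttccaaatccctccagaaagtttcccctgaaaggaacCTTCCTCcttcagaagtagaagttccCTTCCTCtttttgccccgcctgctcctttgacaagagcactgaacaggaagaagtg
The Clec4e window held 1 C/EBP match, at bases -66 to -59 before the start, on the opposite strand. The Clec5a window held 2 PU.1 matches, at -82 to -76 and -56 to -50, also on the opposite strand. No window of either gene matched the interferon-stimulated response element or NF-kappaB letters. Over 27025 promoter windows of the same length, 9.55% held a C/EBP match and 10.4% a PU.1 match. A match describes letters and is not a measured binding site, and binding was not measured here.

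Clec7a encodes Dectin-1, the receptor for fungal beta-glucans. Clec7a (ENSMUSG00000079293; GRCm38, chromosome 6, 129461591 to 129472779, minus strand; GENCODE lists it as a polymorphic pseudogene) was measured at 226 and 227 CPM in WT, 305 and 303 in Trex1-KO, 305 and 312 with H151, and 301 and 335 with SN-011. All 6 Trex1-KO libraries lay above both WT libraries, and the antagonist libraries overlapped with the vehicle libraries. The rise in Trex1-KO was 1.34-fold (log2 fold change 0.43 ± 0.06, SE, edgeR adjusted p = 0.000226). The difference from Trex1-KO was 0.02 (95% interval -0.11 to 0.15) with H151 and 0.06 (-0.07 to 0.19) with SN-011, which was -0.01 without SN-011 replicate 2. The intervals limit a fall to 0.926 of the Trex1-KO level with H151 and to 0.954 with SN-011. Clec7a was still higher than in WT with H151 (0.45 ± 0.06, edgeR adjusted p = 0.000255) and with SN-011 (0.49 ± 0.06, edgeR adjusted p = 0.000117).

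Clec12a encodes MICL, an inhibitory receptor that senses uric acid crystals from dead cells. Clec12a (ENSMUSG00000053063; GRCm38, chromosome 6, 129342691 to 129365303, plus strand) was measured at 427 and 413 CPM in WT, 695 and 688 in Trex1-KO, 563 and 573 with H151, and 623 and 663 with SN-011. No 2 groups overlapped, and the order from low to high was WT, H151, SN-011 and Trex1-KO. It had the smallest adjusted p of the 9 in the comparison of genotypes, with a 1.65-fold rise (log2 fold change 0.72 ± 0.05, SE, edgeR adjusted p = 4.51e-07). H151 lowered Clec12a to 0.821 of the Trex1-KO level (-0.28 ± 0.05, edgeR adjusted p = 0.00915). This call was lost without Trex1-KO replicate 1 (adjusted p = 0.0653) and in a fit of the 2 groups alone (0.0588). With SN-011 the difference was -0.10 (95% interval -0.22 to 0.01, edgeR adjusted p = 0.458). The difference between the antagonists was 0.18 (95% interval 0.06 to 0.29) and was not called (edgeR adjusted p = 0.364), so the levels of Clec12a with H151 and SN-011 were not shown to differ. Both antagonist groups remained above WT, by 0.43 ± 0.05 with H151 and by 0.61 ± 0.05 with SN-011 (log2 fold change ± SE, edgeR adjusted p = 9.93e-05 and 5.19e-06).

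Clec7a and Clec12a, 96.3 kb apart, are shown next because their levels stayed above WT with both antagonists. The windows are chr6:129472780-129473029 for Clec7a, read on the minus strand, and chr6:129349994-129350243 for Clec12a, read on the plus strand. Capitals have the same meaning as above.
Clec7a: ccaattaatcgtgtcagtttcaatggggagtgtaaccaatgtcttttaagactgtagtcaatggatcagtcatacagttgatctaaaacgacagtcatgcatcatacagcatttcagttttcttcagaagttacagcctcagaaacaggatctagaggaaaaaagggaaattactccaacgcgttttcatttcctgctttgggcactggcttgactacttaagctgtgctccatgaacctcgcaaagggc
Clec12a: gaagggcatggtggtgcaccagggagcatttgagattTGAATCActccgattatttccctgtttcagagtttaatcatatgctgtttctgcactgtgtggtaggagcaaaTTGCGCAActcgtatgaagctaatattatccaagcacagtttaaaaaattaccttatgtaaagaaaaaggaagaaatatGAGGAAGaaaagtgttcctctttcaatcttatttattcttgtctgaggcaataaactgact
The Clec7a window held none of the 6 motifs, and neither did a second RefSeq start listed for it. The Clec12a window held a C/EBP match at -140 to -133, an AP-1 match at -213 to -207 and a PU.1 match at -61 to -55. AP-1 letters were present in 6.87% of all windows. Among the other receptors, Clec4a1 and Clec4d each held 1 PU.1 match, Clec4a2 held 1 match to the gamma-activated site (present in 7.18% of windows), and Clec4a3 held none. The interferon-stimulated response element, present in 3.04% of windows, and NF-kappaB, present in 0.337%, matched in none of the 8 receptors with a window. Clec4n was not analysed here for motifs.

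**Figure D2:**
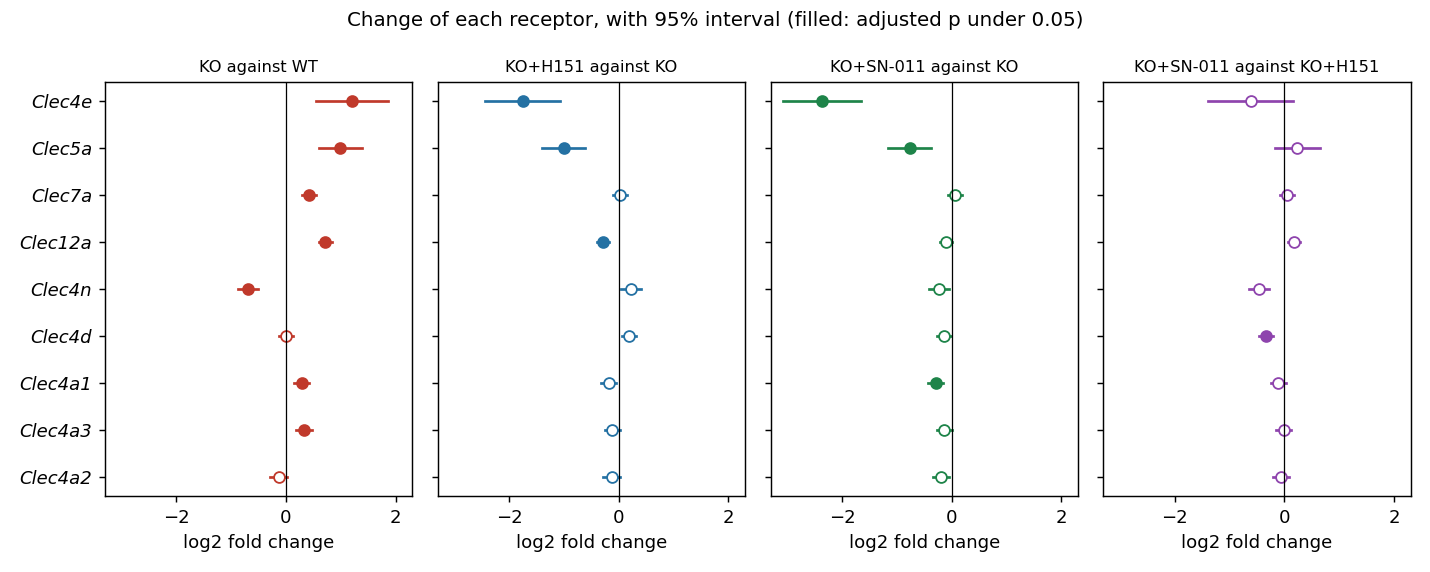
Log2 fold change of each receptor (dot) with its 95% interval (line) in 4 comparisons, from the fit on all 8 libraries; filled dots have an edgeR adjusted p under 0.05. Clec4e and Clec5a lie to the right of 0 for Trex1-KO against WT and to the left for both antagonists, and Clec4d is the filled dot in the comparison of SN-011 with H151.

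Clec4n encodes Dectin-2, a receptor for fungal mannans that signals through FcRgamma. Clec4n (ENSMUSG00000023349; GRCm38, chromosome 6, 123229843 to 123247021, plus strand) was measured at 99.4 and 103 CPM in WT, 57.1 and 68.0 in Trex1-KO, 74.9 and 71.2 with H151, and 52.1 and 54.3 with SN-011. It was the receptor that fell, with both WT libraries above all others. The log2 fold change in Trex1-KO was -0.69 ± 0.08 (SE, edgeR adjusted p = 4.15e-05). The H151 libraries lay above and the SN-011 libraries below the Trex1-KO libraries, and neither difference was called (0.22, 95% interval 0.04 to 0.40 with H151, and -0.24, -0.42 to -0.06 with SN-011). The difference between the antagonists, -0.46 (95% interval -0.64 to -0.28), did not pass the threshold (edgeR adjusted p = 0.0582). It did pass without H151 replicate 2 (adjusted p = 0.0176) and with DESeq2 (0.0128). Both antagonist groups were below WT, by -0.47 ± 0.08 with H151 and by -0.93 ± 0.08 with SN-011 (log2 fold change ± SE, edgeR adjusted p = 0.00147 and 6.48e-06).

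Clec4d encodes MCL, a partner of Mincle that also binds cord factor. Clec4d (ENSMUSG00000030144; GRCm38, chromosome 6, 123262111 to 123275265, plus strand) was measured at 479 and 521 CPM in WT, 497 and 505 in Trex1-KO, 575 and 571 with H151, and 469 and 441 with SN-011. The Trex1-KO libraries fell inside the WT range, the H151 libraries lay above and the SN-011 libraries below both. The difference between genotypes was 0.00 (log2 fold change, 95% interval -0.12 to 0.13), and its sign turned with the scaling by total counts. Against Trex1-KO the difference was 0.19 (95% interval 0.07 to 0.32) with H151 and -0.14 (-0.26 to -0.01) with SN-011, neither of them called (edgeR adjusted p = 0.154 and 0.348). The test of SN-011 against H151 itself was passed by Clec4d, with -0.33 ± 0.06 (log2 fold change ± SE, edgeR adjusted p = 0.0455). In that comparison 0.158% of all genes were called, and at an unadjusted p under 0.05 there were 3 receptors. The call was lost without H151 replicate 1 (adjusted p = 0.109), without SN-011 replicate 1 (0.324) and without SN-011 replicate 2 (0.632), as well as with total-count scaling (0.0566) and in a fit of the 2 groups alone (0.0673). Here too, a batch effect and the antagonist cannot be told apart. Against WT, the higher level with H151 passed (0.20 ± 0.06, edgeR adjusted p = 0.0405), and no longer did when WT replicate 1 or either H151 library was left out (adjusted p = 0.373, 0.128 and 0.0819), or with DESeq2 (0.07).

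The remaining members belong to the DCIR family, in which Clec4a2 (DCIR1) is an inhibitory receptor. Clec4a1 (ENSMUSG00000049037; GRCm38, chromosome 6, 122921848 to 122934619, plus strand) was measured at 221 and 242 CPM in WT, 277 and 288 in Trex1-KO, 251 and 248 with H151, and 236 and 225 with SN-011. The Trex1-KO libraries were the highest, and WT and SN-011 overlapped. The rise was 0.29 ± 0.06 (log2 fold change ± SE, edgeR adjusted p = 0.00528), and it was not called without WT replicate 1 (0.21, adjusted p = 0.109). The level was lower with SN-011 (-0.29 ± 0.06, edgeR adjusted p = 0.0241), a call lost with any of the 4 libraries left out (adjusted p between 0.071 and 0.286). H151 gave -0.18 (95% interval -0.31 to -0.05, edgeR adjusted p = 0.255), and the antagonists differed by -0.11 (-0.24 to 0.02), which was not called.

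Clec4a3 (ENSMUSG00000043832; GRCm38, chromosome 6, 122952515 to 122969875, plus strand) was measured at 128 and 132 CPM in WT, 162 and 166 in Trex1-KO, 147 and 155 with H151, and 156 and 143 with SN-011. All 6 Trex1-KO libraries lay above the WT libraries. The rise was 0.33 ± 0.06 (log2 fold change ± SE, edgeR adjusted p = 0.00245). The difference from Trex1-KO was not called with either antagonist (-0.12, 95% interval -0.26 to 0.02 with H151, and -0.13, -0.27 to 0.01 with SN-011). Clec4a2 (ENSMUSG00000030148; GRCm38, chromosome 6, 123106428 to 123143999, plus strand) ran the other way, at 115 and 108 CPM in WT, 96.4 and 107 in Trex1-KO, 92.6 and 93.6 with H151, and 86.9 and 91.9 with SN-011. Its WT libraries were the highest, but the difference between genotypes was not called (-0.13, 95% interval -0.28 to 0.02, edgeR adjusted p = 0.244), except with total-count scaling (-0.22, adjusted p = 0.0439). It was called lower than WT with H151 (-0.27 ± 0.07, edgeR adjusted p = 0.0249) and with SN-011 (-0.33 ± 0.07, edgeR adjusted p = 0.00731). Both calls were lost without WT replicate 1 (adjusted p = 0.177 and 0.0798), and also without H151 replicate 1 (0.0648) or SN-011 replicate 1 (0.109).

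Differences from WT with each antagonist were counted over the 9 receptors. They are not all remainders of a change in Trex1-KO. Clec4d and Clec4a2 were not called in Trex1-KO against WT, and Clec4e was called higher there. With H151, 4 receptors were higher and 2 lower than in WT, against 11.8% of all tested genes called (6.79% higher and 5.04% lower). Besides Clec7a, Clec12a and Clec4d, the higher receptors included Clec4a3 (0.21 ± 0.06, edgeR adjusted p = 0.0483), a call lost in 11 of 13 alternatives, among them each of the 4 libraries left out (adjusted p between 0.0679 and 0.295), DESeq2 (0.117), its size factors (0.0534), total counts (0.156), every gene with at least 1 count (0.0717) and both tests on the 2 groups alone (0.0776 and 0.0764). With SN-011, 2 were higher (Clec7a and Clec12a) and 3 lower (Clec4e, Clec4n and Clec4a2), against 11.7% of all genes (6.18% higher and 5.57% lower). The calls of Clec4e and Clec4a2 with SN-011, and of Clec4d and Clec4a2 with H151, were lost in alternatives other than the 2-fold threshold, as given above. The difference of Clec4a1 from WT was 0.11 (95% interval -0.03 to 0.24) with H151 and -0.00 (-0.14 to 0.13) with SN-011.

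All 9 genes lie on chromosome 6, and 6 of them (Clec4a1, Clec4a3, Clec4a2, Clec4n, Clec4d and Clec4e, in this order) within 368.02 kb. The 6 genes did not all share a direction. Clec4d and Clec4e are 6.52 kb apart and face each other on opposite strands, and Clec4e rose in Trex1-KO where Clec4d stayed at its WT level. Clec4n, 15.1 kb from Clec4d on the other side, fell. Clec4a1 and Clec4a3, 17.9 kb apart at the other end, rose by similar amounts, 0.29 and 0.33. No exon of the 9 genes overlaps an exon of another gene. Sequence shared with relatives can divert reads, since only uniquely mapped pairs were counted. The closest transcript match outside the 9 genes was that of Clec4a2 to Clec4a4, with 85.1% identity over 786 bases. Clec4a4 had between 8 and 20 counts per library, compared with 1082 to 1630 for Clec4a2.

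**Figure D3:**
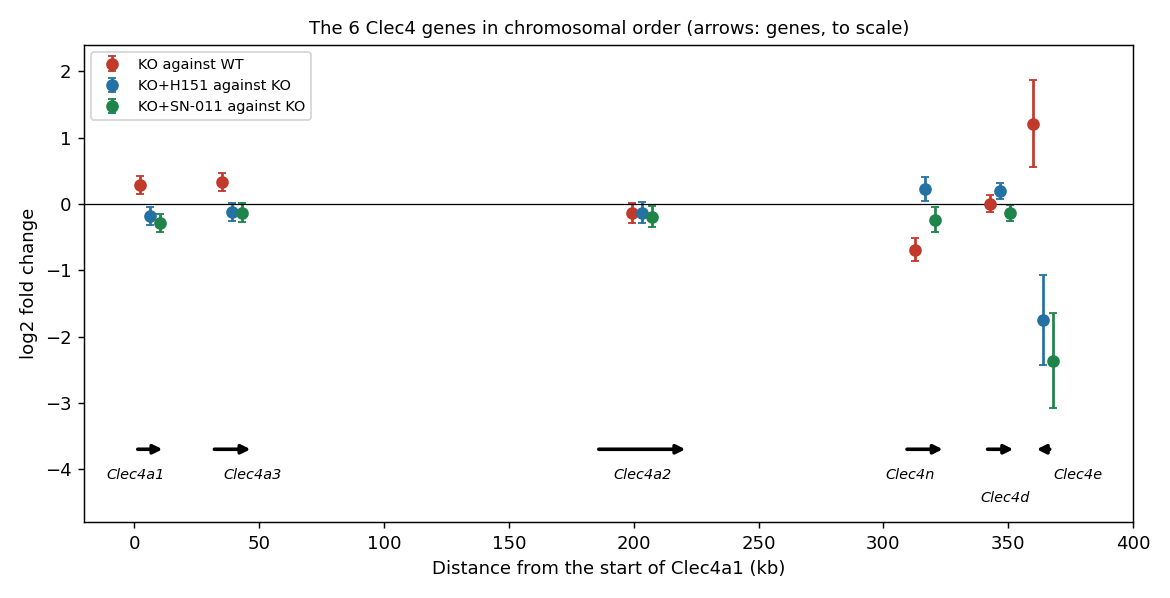
Log2 fold change with 95% interval of the 6 clustered Clec4 genes, against distance in kb from the start of Clec4a1; arrows give each gene's extent and strand, and dots of 1 gene are shifted sideways for legibility. Clec4e at the right end rose by 1.21 in Trex1-KO, while Clec4d beside it was at 0.00 and Clec4n at -0.69.

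Signalling partners were counted over lists of genes. Of the 3 adaptors, Fcer1g, through which Clec4e, Clec4d and Clec4n signal, was measured at 482 and 486 CPM in WT and 609 and 539 in Trex1-KO, and was called higher (log2 fold change 0.25 ± 0.07, SE, edgeR adjusted p = 0.0186). Tyrobp (0.11, 95% interval -0.06 to 0.29) and Hcst (0.17, -0.25 to 0.59), the partners of Clec5a, were not called. In that comparison 9.27% of all tested genes were higher. None of the 3 adaptors was called with either antagonist, where 2.23% (H151) and 2.33% (SN-011) of all genes were. Fcer1g differed from Trex1-KO by -0.02 with H151 (95% interval -0.16 to 0.12) and by 0.00 with SN-011 (-0.14 to 0.14).

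Of 19 proximal signalling genes, 8 were higher and 3 lower in Trex1-KO than in WT (9.27% and 7.11% of all tested genes), and their median log2 fold change was 0.14. The highest rise was that of Fgr, a SRC-family kinase, from 5.52 and 2.91 CPM to 10.9 and 9.96 CPM (log2 fold change 1.32 ± 0.24, SE, edgeR adjusted p = 0.00148). Cblb, a ubiquitin ligase that targets SYK and Dectin receptors for degradation, rose by 0.57 ± 0.07 (log2 fold change ± SE, edgeR adjusted p = 6.47e-05). The 3 lower genes were Src, Plcg1 and Vav2, with log2 fold changes of -0.48, -0.46 and -0.27, and of these Plcg1 and Vav2 were named after their values were seen. Syk itself was measured at 525 and 554 CPM in WT and 593 and 576 in Trex1-KO and was not called (0.12, 95% interval -0.00 to 0.23). With H151, 2 of the 19 were lower than in Trex1-KO and 0 higher (1.84% and 0.384% of all genes): Lcp2 (-0.32), which encodes the scaffold SLP-76, and Lyn (-0.27). Fgr differed by -0.71 with H151 (95% interval -1.20 to -0.22) and was not called (edgeR adjusted p = 0.2005), with both H151 libraries, at 6.68 and 6.11 CPM, below both Trex1-KO libraries. With SN-011, 3 were lower and 0 higher (2.22% and 0.11% of all genes): Fgr (-0.99), Lcp2 (-0.33) and Lyn (-0.25). Lcp2 was at 106 and 108 CPM with H151 and 108 and 104 with SN-011, compared with 136 and 132 in Trex1-KO and 101 and 95.2 in WT.

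Of 17 genes of the CARD9 complex and downstream of it, 2 were higher and 0 lower in Trex1-KO, a share of higher calls near the 9.27% of all tested genes (7.11% were lower). Their median log2 fold change was 0.12. The higher genes were Rel (0.29 ± 0.06) and Nlrp3 (0.24 ± 0.07, log2 fold change ± SE). Card9 was not called (0.01, 95% interval -0.15 to 0.17), and neither were Bcl10 (0.09) and Malt1 (0.12). Nlrp3, the inflammasome sensor, was measured at 135 and 122 CPM in WT, 160 and 144 in Trex1-KO, 112 and 110 with H151, and 116 and 115 with SN-011. It was lower than in Trex1-KO with H151 (-0.45 ± 0.07, edgeR adjusted p = 0.00245) and with SN-011 (-0.40 ± 0.07, edgeR adjusted p = 0.0069). It was the 1 gene of this list called with H151 (1.84% of all genes were lower), and with SN-011 (2.22%) Rel was called as well (-0.28).

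**Figure D4:**
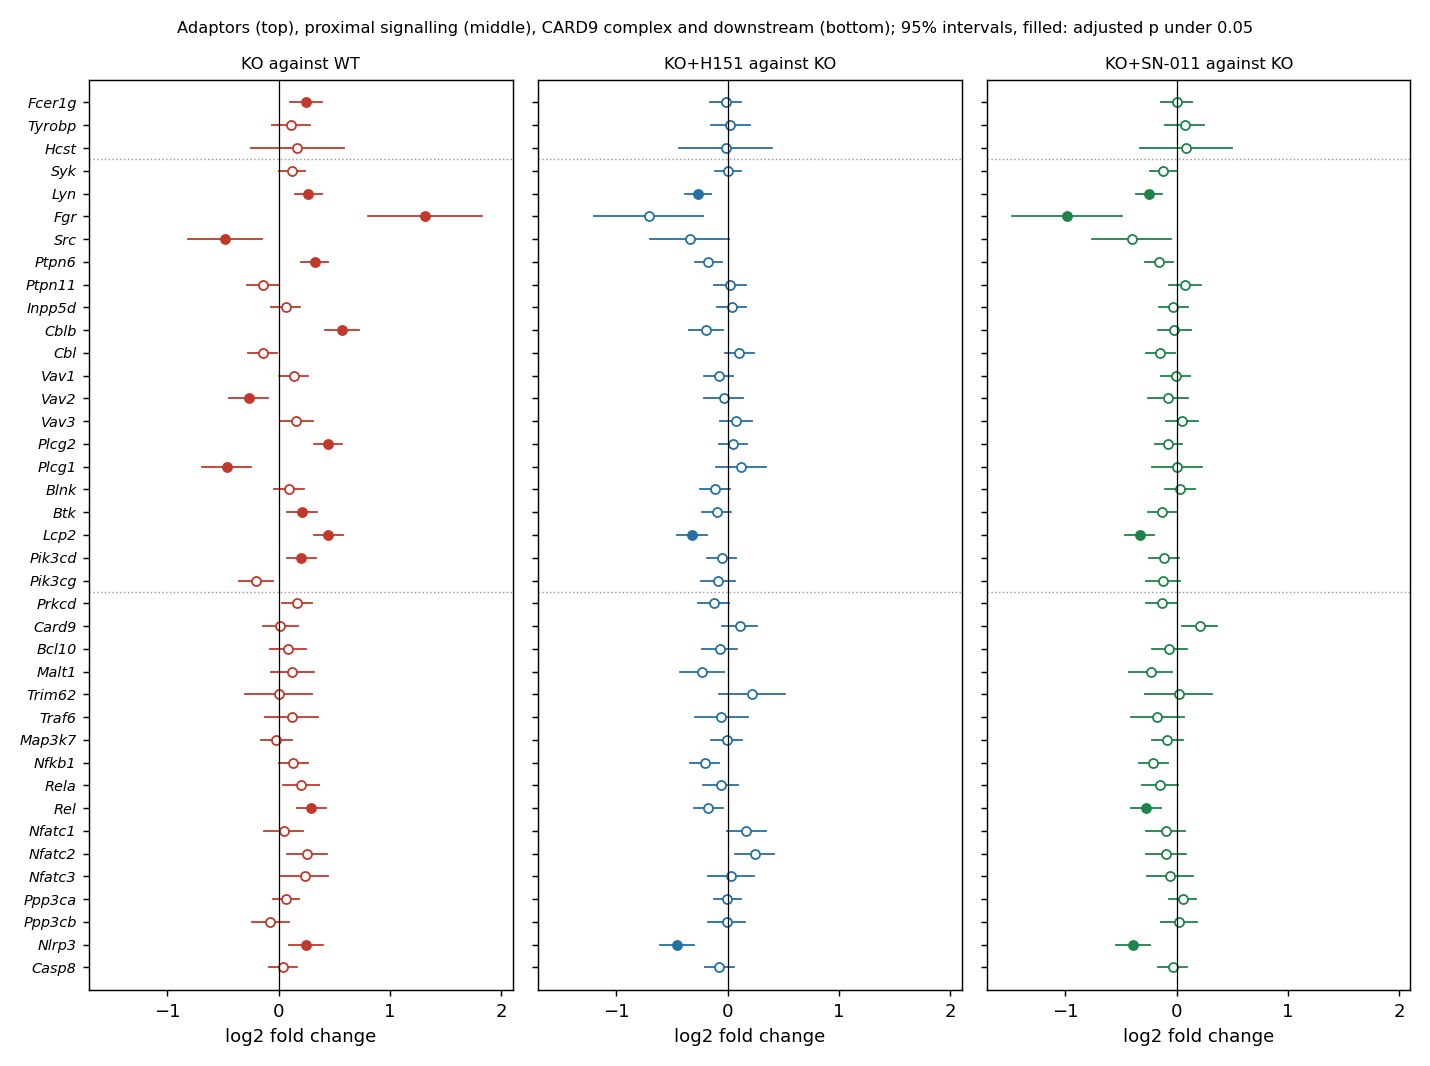
Log2 fold change with 95% interval of 39 signalling partners in 3 comparisons on a shared axis; dotted lines separate adaptors, proximal signalling and the CARD9 list, and filled dots have an edgeR adjusted p under 0.05. The filled dots number 11 higher and 3 lower for Trex1-KO against WT, 3 lower for H151 and 5 lower for SN-011.

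Reported host ligands and relatives were also counted. Lgals9, galectin-9, which Dectin-1 is reported to bind, was measured at 99.1 and 92.4 CPM in WT, 212 and 202 in Trex1-KO, 128 and 133 with H151, and 140 and 136 with SN-011. It rose by 1.11 ± 0.06 and was lower with H151 (-0.67 ± 0.06) and SN-011 (-0.58 ± 0.06, log2 fold change ± SE, edgeR adjusted p = 3.94e-08, 2.9e-05 and 9.92e-05). Clec7a was not called with either antagonist. Against Trex1-KO, Lgals9 was the 1 ligand gene called with each antagonist (1.84% of all genes were lower with H151 and 2.22% with SN-011). Between genotypes Vim was lower (-0.41 ± 0.06), and the other 3 tested ligand genes were not called (9.27% of all genes were higher and 7.11% lower). Of these, Sap130 names a SIN3A-associated protein and not the protein bound by Mincle. Of 20 other C-type lectins and lectin-like genes tested, of 34 in the files, Trex1-KO cells had 8 higher and 4 lower (9.27% and 7.11% of all tested genes). The 8 include Clec9a, itself a dendritic cell gene, which had 5 and 3 counts in WT and 24 and 26 in Trex1-KO. It passed the filter on low counts only through the group in which it was high, so its call is no support and its fitted change is not ranked. Among the others the largest changes were those of Clec2i (2.14 ± 0.14) and Cd72 (2.03 ± 0.11, log2 fold change ± SE). With H151, Cd72 (-0.47) and Clec10a (-0.39) were lower (1.84% of all genes were), and with SN-011 Cd72 was (-0.48, with 2.22% of all genes). Of the transcription factor genes Cebpb, Cebpd and Spi1, none was called by edgeR in any of the 6 comparisons. At an unadjusted p under 0.05 there were 2 of the 3 with each antagonist against WT, 0 with H151 against Trex1-KO, and 1 in each of the other comparisons.

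Genes with the most similar profile were sought among 10651 genes, as the smallest root mean square difference of centred log2 CPM over the 8 libraries. Clec4e was nearest to Gpr84 (0.199) and Fpr2 (0.258), Clec5a to Cd40 (0.11) and Stx11 (0.137), Clec12a to Hpse (0.0558) and Cblb (0.0588), and Clec7a to Bcl2l1 (0.0356) and Zfp367 (0.0448). Gpr84 and Fpr2 are themselves receptors of myeloid cells, for medium-chain fatty acids and formyl peptides. For the other receptors the nearest were Slc30a1 and Luc7l3 (Clec4a1), Ccdc58 and Cct8 (Clec4a2), Stx7 and Stxbp3 (Clec4a3), Wdr62 and Smap2 (Clec4d), and mt-Nd4l and Gm45221 (Clec4n). The nearest receptor to Clec4e was Clec5a (0.632). Clec4a1 and Clec4a3 (0.0831) and Clec7a and Clec12a (0.125) were each other's nearest receptors. These distances grow with the spread of a gene over the libraries (SD of its centred log2 CPM). That spread was 1.02 for Clec4e and 0.493 for Clec5a, but 0.134 for both Clec4a1 and Clec4a3. The distances of different receptors therefore do not rank how alike the shapes of their profiles are. The 8 libraries share their groups in all these profiles, so the distances are a description.

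Libraries held between 11845470 and 17284863 counts, and the correlation of log2 CPM between the libraries of a group was 0.990 to 0.991. Trex1 itself had 0 counts in every library, WT included, and its exons lie within those of Atrip, so genotype rests on the labels. The 8 macrophage markers summed to between 30092 and 32363 CPM in all libraries, most of it Lyz2 (20296 to 23079 CPM), with Csf1r at 4690 to 5072 CPM. Of these 8 markers, loss of Trex1 went with 3 higher calls and 0 lower (9.27% and 7.11% of all tested genes, the shares for all marker counts of this comparison): Fcgr1 (1.14), Cd68 (0.44) and Adgre1 (0.19, log2 fold change). Fcgr1, a receptor for IgG, went from a WT mean of 233 CPM to a Trex1-KO mean of 513 CPM, and was the 1 macrophage marker called lower with H151 (-0.50) and with SN-011 (-0.49). The libraries also differed between genotypes in markers of other cells. The 10 neutrophil markers summed to 9.49 to 9.86 CPM in WT and 66.4 to 101 CPM in the 6 Trex1-KO libraries, whereas Ly6g had at most 3 counts and Cxcr2 at most 8. S100a8, S100a9 and Ngp had 20 to 47 counts in the WT libraries and 144 to 434 in the others, and were called higher. Camp, with 1 and 7 counts in WT and 44 to 88 in the others, passed the filter on low counts only through the groups in which it was high, so its call is no support. The 4 monocyte markers summed to 36.3 to 42.9 CPM in WT and 84.7 to 97.3 CPM in the others, and Ccr2 was called higher in Trex1-KO. Ly6c2 had 3 and 1 counts in WT and 13 to 29 in the others, and passed the filter in the same way as Camp. Vcan, with a WT mean of 20.3 CPM against 16.0 CPM for Trex1-KO, was not called between genotypes (-0.34, edgeR adjusted p = 0.0806) and was lower than WT with SN-011 (-0.48, edgeR adjusted p = 0.0208). The 6 stromal markers summed to 2069 to 2265 CPM in WT and 849 to 1200 CPM in the others, with 4 of 5 tested members called lower in Trex1-KO. Dendritic cell markers summed to 4.0 to 6.88 CPM, with Cd209a and Ccr7 at 0 in every library. Xcr1, with 3 and 1 counts in WT and 9 to 25 in the other libraries, likewise passed the filter only through the groups in which it was high, and its calls against WT are no support. B cell markers summed to 2.28 to 5.18 CPM, and mast cell and basophil, T and NK cell, and erythroid markers to at most 1.81 CPM. Neutrophils and monocytes express most of the 9 receptors, and in bulk samples fewer cells of a type and less RNA per cell cannot be told apart; the part of these cells in the differences of the receptors between groups was not tested. No neutrophil, monocyte or stromal marker was called between Trex1-KO and either antagonist.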

How the data were processed

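The deposited values are raw counts per gene for 54532 Ensembl identifiers in each of 8 libraries, made by the authors from paired-end reads. Per the study's methods, reads were trimmed with Trimmomatic, aligned with hisat2, and uniquely mapped pairs counted with featureCounts; the labels' processing notes name HISAT2, HTSeq and mm10. Tool versions, annotation and strand setting are not given in the sources used here. The HiSeq model differs between labels and methods. Symbols and positions came from GENCODE M21 (54495 identifiers matched, 37 did not), and promoter sequences from RefSeq (GRCm38.p6), with a window for 8 of the 9 receptors.

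Groups and replicate numbers were read from titles, and no library was left out. Counts were filtered with filterByExpr (minimum count 10, minimum total 15; 14591 genes kept), scaled by TMM (factors 0.973 to 1.04) and tested in R 4.3.3 with edgeR 4.0.16 in 1 quasi-likelihood fit of all 8 libraries, two-sided, and p-values were adjusted by Benjamini-Hochberg over the 14591 genes. SE was taken from the log2 fold change and its F statistic. Per-library totals of 11845470 to 17284863 make 3 counts worth 0.175 to 0.255 CPM; this precision covers counting error only. FPKM was TMM-normalized CPM divided by the exonic length in GENCODE. Transcript similarity was searched with BLAST 2.17.0. The scripts were tested on simulated data. The study reports 2 independent experiments per group, and what the numbers pair is not stated in the labels; the p-values measure the spread between these libraries. Alternatives were DESeq2 1.42.0 (test and size factors), total-count scaling, other count filters, edgeR's exact test, fits of 2 groups, a block on the replicate number, an added 2-fold threshold and leaving out each library. All 9 receptors were named in every comparison, plus up to 3 called genes per list by size of change and the 2 nearest profiles per receptor. The receptors and lists were chosen with earlier results of these data known. Some genes of the signalling lists are not reported here, whatever their values, so the counts and medians of these lists cover the genes reported and not the full lists.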

Additional observations from a re-analysis of the deposited data

Results flagged for a closer look

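The level of Clec4d differed between the SN-011 and H151 libraries by the test of the difference itself, with a log2 fold change of -0.33 ± 0.06 (± SE; adjusted p = 0.0455 in edgeR), from 575 and 571 CPM with H151 to 469 and 441 CPM with SN-011, which was lower in 2 of 2 libraries. The H151 libraries lay above and the SN-011 libraries below the Trex1-KO libraries (497 and 505 CPM). Over the alternatives the difference ran from -0.38 to -0.29 and the adjusted p from 5.27e-06 to 0.632. The SN-011 libraries have later records than the others, so a batch effect and the antagonist cannot be told apart. Groups of 2 libraries are too small for a check of single outlying libraries.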

How the results depend on the processing

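Of 729 recomputed log2 fold changes of the receptors, 635 kept their direction and side of the threshold. Another 65 kept their direction and lost the call, 14 gained one, and 15, none of them called, turned sign. Causes were not tested. These counts include the added 2-fold threshold, which reuses the main log2 fold changes. Under it no sign could turn and no call be gained, and every call below 2-fold was lost by construction. Requiring a change of at least 2-fold left 1 receptor higher and 0 lower in Trex1-KO against WT, 1 lower with SN-011 against Trex1-KO, 0 between the antagonists, 0 higher and 0 lower with H151 against WT, and 0 higher and 1 lower with SN-011 against WT. With total counts only, 2 receptors were lower in Trex1-KO than in WT (Clec4n and Clec4a2), 0 between the antagonists and 2 higher with H151 than in WT. Every gene with at least 1 count gave 1 receptor higher with H151 against Trex1-KO and 3 lower with SN-011 against H151. For that last comparison, DESeq2 gave 2 lower, edgeR's exact test 3, the fit of only the 2 groups 0, and the fit of only the 6 Trex1-KO libraries 0, an alternative chosen after seeing the data. DESeq2, the exact test and the fit of 2 groups each left 2 higher with H151 against WT.

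Leaving out 1 library gave 1 receptor lower with SN-011 against Trex1-KO in each case, 0 to 2 between the antagonists, 2 to 3 higher and 1 to 3 lower with H151 against WT, and 1 to 3 lower with SN-011 against WT. The lone library of a group is then assumed to vary like the other groups. Differences that turned sign ranged, with 1 library left out, from -0.070 to 0.054 for Clec4d in Trex1-KO against WT, from -0.011 to 0.13 for Clec7a with SN-011 against Trex1-KO, from -0.084 to 0.049 for Clec4a3 and from -0.033 to 0.11 for Clec7a between the antagonists, from -1.15 to 0.45 for Clec4e and from -0.36 to 0.40 for Clec5a with H151 against WT, and from -0.082 to 0.056 for Clec4a1 and from -0.12 to 0.63 for Clec5a with SN-011 against WT. Clec4d in Trex1-KO against WT was also -0.081 with total counts only and -0.011 with every gene with at least 1 count.

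The replicate number was not taken to pair libraries, since the labels do not say what it stands for. Deviations of same-numbered libraries correlated at 0.194 for H151 against Trex1-KO and between -0.016 and 0.061 in the other comparisons. These values do not decide whether the libraries are paired. With the replicate number as a block, SN-011 against H151 gave 2 receptors lower, Clec4n as well as Clec4d, Clec5a with H151 against WT turned to 0.011, and no other receptor's call changed; over all genes the calls between the antagonists went from 23 to 44.

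Over all genes, the share of higher calls was 56.6% with TMM and 37.2% with total counts in Trex1-KO against WT, 57.4% and 41.7% with H151 against WT, and 52.6% and 40.3% with SN-011 against WT. Calls in Trex1-KO against WT went from 2390 to 893 with the 2-fold threshold and to 1556 and 1583 without WT replicates 1 and 2. With H151 against Trex1-KO they went from 325 to between 70 and 525, with SN-011 against Trex1-KO from 340 to between 76 and 679, between the antagonists from 23 to between 2 and 291, with H151 against WT from 1726 to as few as 511, and with SN-011 against WT from 1714 to as few as 590.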

Other observations

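Clec4n had the difference between antagonists nearest to the threshold without passing it (SN-011 against H151, log2 fold change -0.46, edgeR adjusted p = 0.0582, lower in 2 of 2 libraries). Over the alternatives the adjusted p ran from 5.38e-05 to 0.836, and 5 of 14 alternatives called it.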
